A study of Saccharomyces cerevisiae with 78 samples.

Results

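The large ribosomal subunit protein L2 is made from a pair of gene copies, *RPL2A* (YFR031C-A) and *RPL2B* (YIL018W), each with an intron, and the strain without the *RPL2A* intron (*rpl2a*Δi, rpl2aDi in the labels) was compared here with the strain without the *RPL2B* intron (*rpl2b*Δi, rpl2bDi in the labels). The arrays were chosen by their description: 4 arrays are 2 replicates of *rpl2a*Δi and 6 arrays are 3 replicates of *rpl2b*Δi, together 10 of the 78 arrays in the series. The series covers 17 intron deletion strains of ribosomal protein genes, each hybridised against wild-type budding yeast on 2-colour arrays with intron, splice junction and exon features. The dyes were swapped within a replicate, the mutant being labelled with Cy3 on 1 array and with Cy5 on the other. The value of a feature is the log2 ratio of mutant over wild type. It was averaged over the 6 spots of the feature and then over the 2 arrays of a replicate. A value of 0 means equal signal and 1 a doubled signal. The paper states that these arrays compress fold changes compared with qPCR, so folds given here are folds of array signal.

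Both strains are haploids of *Saccharomyces cerevisiae* in which 1 intron was replaced in a diploid by a selectable cassette, the cassette was cut out to leave only the joined exons, and spores were taken. The other *RPL2* copy keeps its intron in each. Mutant and wild type, which derives from the same parent, were grown side by side in rich medium with glucose at 30 °C to mid-log density, and total RNA was labelled. Neither the mating type of the spores nor the origin of the replicates, as separate cultures or repeated arrays, is given in the labels, so p-values may measure technical spread.

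As background, L2 lies close to the catalytic centre of the ribosome, and both copies encode the same protein. A spliced message loses its intron in the nucleus, so an intron feature reads unspliced precursor, a junction feature reads spliced message and an exon feature reads both. Some ribosomal proteins, L30 and S14 among them, bind the precursor of their own gene and hold back its splicing, which ties the level of the message to the level of the protein.

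The features of 941 genes could be compared in exons and those of 228 genes in introns and junctions. On the 10 arrays the median log2 ratio lay between -0.0078 and 0.0098, and 235 to 3038 of the 9216 spots of an array carried no value. The median SD within strains was 0.15 for exon values on the log2 scale, as estimated by the limma fit over all 39 replicates of the series. The array names fall into slide groups, called here batches A to D after the first part of the name. Replicate 1 of *rpl2b*Δi came from batch A and its replicates 2 and 3 from batch C, while replicate 2 of *rpl2a*Δi came from batch C and the arrays of its replicate 1 from batch B (Cy3) and batch C (Cy5). The replicate 1 arrays were also the less even pairs: the median gap between the Cy3 and the Cy5 array was 0.489 in replicate 1 of *rpl2b*Δi, with 149 genes more than 1 apart, and 0.295 in replicate 1 of *rpl2a*Δi, against 0.191 to 0.242 in the other replicates.

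The deleted introns differed most between the strains among all intron features, as the construction fixes. The *RPL2A* intron stood at -2.34 and -1.62 in *rpl2a*Δi and at -0.15, -0.067 and -0.12 in *rpl2b*Δi, a difference of -1.87 (3.65-fold). The *RPL2B* intron stood at 0.12 and 0.078 in *rpl2a*Δi and at -3.15, -4.31 and -2.59 in *rpl2b*Δi, a difference of 3.45 (10.9-fold). Every replicate thus carried the deletion its label names, and the other copy's intron feature stayed between -0.15 and 0.12. The labels hold on single arrays as well: the *RPL2A* intron lay between -2.47 and -1.39 on the 4 *rpl2a*Δi arrays, and the *RPL2B* intron between -4.44 and -2.32 on the 6 *rpl2b*Δi arrays.

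The mean exon signal of both *RPL2* copies was close to wild type in both strains, whichever intron was missing. The *RPL2A* exon read 0.13 and 0.095 in *rpl2a*Δi against 0.18, -0.0091 and -0.035 in *rpl2b*Δi. The values of the strains overlap, and their difference was 0.069 (SE 0.11, 95% interval -0.16 to 0.30, limma adjusted p = 0.801). The *RPL2B* exon read 0.14 and 0.017 in *rpl2a*Δi against 0.025, -0.016 and -0.034 in *rpl2b*Δi. These overlap too, with a difference of 0.085 (SE 0.14, 95% interval -0.21 to 0.38, limma adjusted p = 0.812). In every replicate of both strains the *RPL2B* exon read above 0 in Cy3 and below 0 in Cy5. The *rpl2b*Δi replicates join 0.42 and -0.37, 0.16 and -0.20, and 0.074 and -0.14, so their values near 0 are averages of unlike arrays. Two-sided exact permutation tests over the 5 replicates gave p = 0.5 for *RPL2A* and p = 0.2 for *RPL2B*, where the smallest p that 2 against 3 replicates allow is 0.1.

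**Figure D1:**
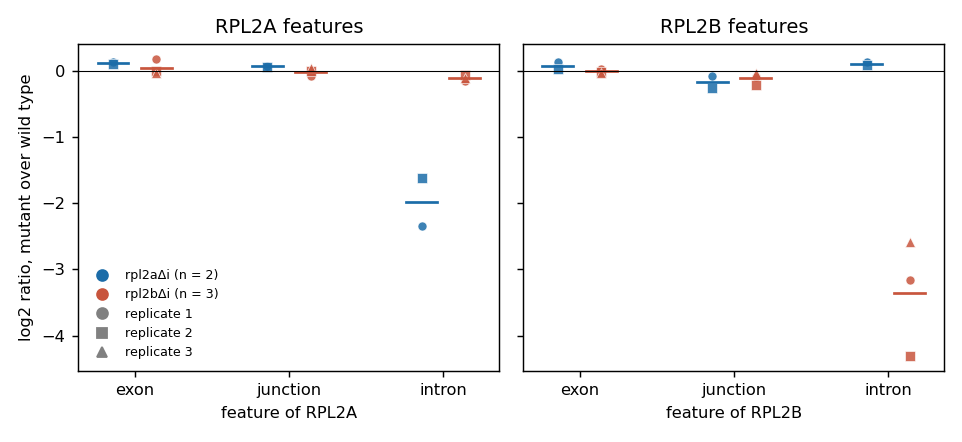
Log2 ratio of mutant over wild type for the exon, junction and intron features of RPL2A (left) and RPL2B (right), with 1 point per replicate (circle, square and triangle for replicates 1 to 3; blue, rpl2aΔi; red, rpl2bΔi) and a bar at each strain's mean. Exon and junction values lie near 0 in both strains, and only the intron that a strain lacks is low, from -2.34 to -1.62 for RPL2A and from -4.31 to -2.59 for RPL2B.

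The *RPL2* junction features followed the same picture. In the strain that lacks a copy's intron, all message of that copy has the exons joined, so its junction there does not read splicing. The *RPL2A* junction stood at 0.066 and 0.059 in *rpl2a*Δi and at -0.078, -0.004 and 0.033 in *rpl2b*Δi. The replicates do not overlap, but the difference was 0.079 (limma adjusted p = 0.885, exact permutation p = 0.2). The *RPL2B* junction overlapped between the strains, at -0.081 and -0.26 against -0.089, -0.22 and -0.037, with a difference of -0.052 (limma adjusted p = 0.987, exact permutation p = 0.6). Among the other 34 replicates of the series the *RPL2A* exon ran from -0.44 to 0.25 and the *RPL2B* exon from -0.51 to 0.32, so both strains fall inside the range set by strains that keep both introns. The copies are near-identical in their coding parts, and whether the exon features tell them apart was not tested.

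By contrast, genes of mating type held the 6 largest exon differences between the strains, and 1 array stood apart in them. Haploid yeast is of type a or alpha: a cells secrete a-factor, encoded by *MFA1* and *MFA2*, and alpha cells secrete alpha-factor, encoded by *MF(ALPHA)1* and *MF(ALPHA)2*, and carry the a-factor receptor Ste3. *MFA2* was at 0.37 and -0.085 in *rpl2a*Δi and at -3.94, -4.47 and -3.77 in *rpl2b*Δi. *MFA1* was at 0.24 and 0.029 against -3.04, -2.65 and -2.62. Message for a-factor in *rpl2a*Δi was thus near that of its wild type, while all 3 *rpl2b*Δi replicates were low.

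The alpha-specific genes ran the other way. *MF(ALPHA)1* was at -2.27 and 0.051 in *rpl2a*Δi and at 4.55, 6.24 and 6.08 in *rpl2b*Δi, and *STE3* was at -1.13 and 0.071 against 3.17, 2.39 and 2.37. *MF(ALPHA)2* read -0.83 and -0.023 against 3.28, 3.23 and 2.88. *MATALPHA2*, a repressor of a-specific genes, read -0.071 and -0.25 against 1.38, 1.42 and 1.15, and *MATALPHA1*, the activator of alpha-specific genes, read -0.80 in the only *rpl2a*Δi replicate with a value against 1.99, 4.18 and 3.34. Of the a-specific markers listed, 2 of 8 were on the array, and of the alpha-specific markers 5 of 6. In all 7 the values of the strains were apart.

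**Figure D2:**
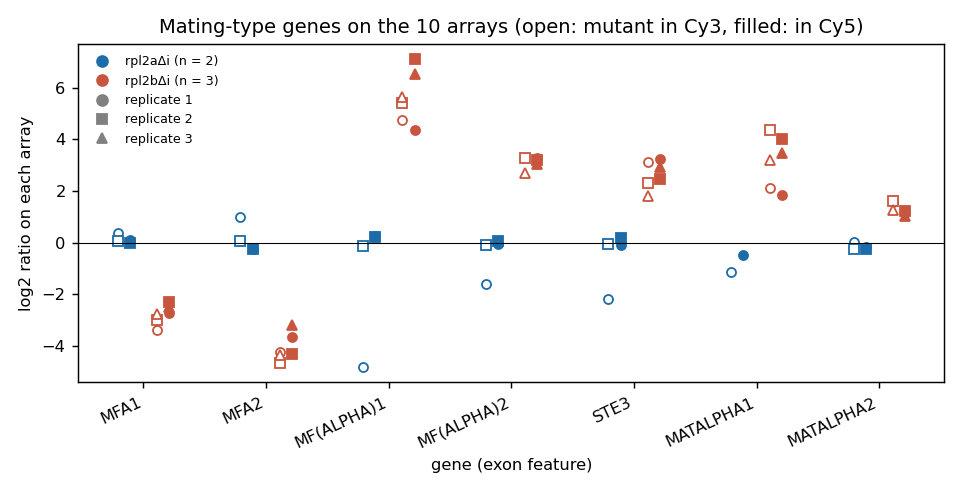
Log2 ratio of mutant over wild type on each of the 10 arrays for 7 mating-type genes (blue, rpl2aΔi; red, rpl2bΔi; open symbols, mutant in Cy3; filled symbols, mutant in Cy5; symbol shape, replicate). All rpl2bΔi arrays are low in MFA1 and MFA2 and high in the alpha-specific genes, while among rpl2aΔi arrays only the Cy3 array of replicate 1 leaves 0 by more than 1, reaching -4.81 in MF(ALPHA)1.

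The array that stood apart was the Cy3 array of *rpl2a*Δi replicate 1, the only one of the 10 from batch B. There *MF(ALPHA)1* read -4.81, *STE3* -2.19 and *MF(ALPHA)2* -1.60, with *MFA2* at 0.97. The Cy5 array of the same replicate read 0.27, -0.075, -0.060 and -0.23 for these genes, and the arrays of replicate 2 lay between -0.23 and 0.21. The values of replicate 1 therefore average arrays that do not match in these genes, and each named difference below was also computed without this array.

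None of the 7 mating-type genes passed the limma test with the spread taken over all 17 strains, and none did without the Cy3 array of *rpl2a*Δi replicate 1. The difference was 2.91 (SE 0.80) for *MFA1*, 4.20 (SE 1.27) for *MFA2*, -6.73 (SE 2.06) for *MF(ALPHA)1*, -3.56 (SE 0.95) for *MF(ALPHA)2* and -3.18 (SE 0.88) for *STE3*, with adjusted p of 0.0823 to 0.155. Those of *MATALPHA1* and *MATALPHA2* were -3.97 and -1.47 (limma adjusted p = 0.225 and 0.203). Over the 39 replicates of the series, 23 had *MFA2* at -3 or lower. Fitted on the 5 replicates of these strains alone, *MFA1* and *MFA2* (limma adjusted p = 0.000488 both), *MF(ALPHA)1* (0.0119), *MF(ALPHA)2* (0.00139), *STE3* (0.0147) and *MATALPHA2* (0.00201) passed. Within batch C, where *rpl2a*Δi is represented by replicate 2 and the Cy5 array of replicate 1 and *rpl2b*Δi by replicates 2 and 3, all 7 passed, with *STE3* at -2.38 (SE 0.061, limma adjusted p = 2.5e-11). As every *rpl2b*Δi replicate has these values and no *rpl2a*Δi replicate has them, the deleted intron and the mating-type genes cannot be told apart within these 5 replicates. A limma fit over all 39 replicates with a term for *MFA2* at -3 or lower takes the size of that term from the strains whose replicates differ in *MFA2*, and its values are given below beside the genes called.

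Genes of the pheromone response differed in the direction of the alpha-specific genes. *SST2*, which turns the pheromone signal down, was at -0.22 and 0.24 in *rpl2a*Δi and at 0.74, 0.69 and 0.78 in *rpl2b*Δi, a difference of -0.72 (limma adjusted p = 0.328). All 5 measured genes of the 16 listed, *SST2*, the nuclear fusion factor *KAR4*, the kinase *FUS3*, the transcription factor *STE12* and the meiosis repressor *RME1*, were lower in *rpl2a*Δi without overlap of replicates, with a median of -0.45, and 0 of 5 passed the limma test (3 at an unadjusted p under 0.05). Over all genes, replicates lay apart and lower in *rpl2a*Δi in 234 of 928 (25.2%). Within batch C, 4 of the 5 passed, all but *RME1*, where 14.6% of all genes were called lower.

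Over all genes the strains differed in few exon values. In limma, 1 of 941 genes was higher in *rpl2a*Δi (0.106%) and 3 were lower (0.319%) at an adjusted p under 0.05, and 126 (13.4%) had an unadjusted p under 0.05. Without the Cy3 array of *rpl2a*Δi replicate 1 these calls were 0 and 2. Replicates did not overlap and were higher in *rpl2a*Δi in 145 of 928 genes with at least 2 values in each strain (15.6%). Values of the strains against each other show the mating-type genes far out along the *rpl2b*Δi axis and most other genes within a narrow cloud around 0.

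**Figure D3:**
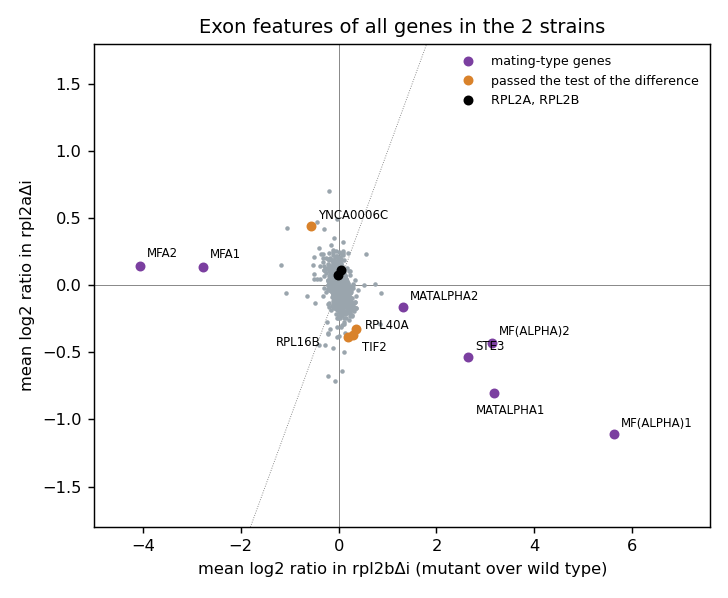
Mean log2 ratio of each gene's exon feature in rpl2bΔi (horizontal axis) against rpl2aΔi (vertical axis, on a wider scale), with the dotted line at equal values. Mating-type genes (violet) spread from -4.06 to 5.62 in rpl2bΔi, the 4 genes that passed the test (orange) lie off the line near 0, and RPL2A and RPL2B (black) lie in the cloud.

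*RPL40A* was the exon difference with the lowest adjusted p. It encodes a fusion of ubiquitin and the large subunit protein L40. Its exon read -0.34 and -0.31 in *rpl2a*Δi and 0.60, 0.23 and 0.22 in *rpl2b*Δi, a difference of -0.68 (SE 0.11, 1.6-fold, limma adjusted p = 0.00265). Both *rpl2a*Δi values were below 0 and all 3 *rpl2b*Δi values above it. The highest value, 0.60, rests on the Cy5 array alone. The *rpl2a*Δi replicates read lower in Cy3, at -0.53 and -0.44, than in Cy5, at -0.15 and -0.17. Replicate 2 of *rpl2b*Δi joins -0.12 in Cy3 and 0.58 in Cy5, while its replicate 3 joins 0.27 and 0.18. *RPL40A* in *rpl2a*Δi also lay below the range of the other 34 replicates of the series, which was -0.18 to 0.35. Its copy *RPL40B*, which encodes the same protein, overlapped between the strains, with a difference of 0.025 (SE 0.12). Without *rpl2a*Δi replicate 1 the *RPL40A* difference was -0.66 with a limma adjusted p of 0.066, and without only the Cy3 array of that replicate it was -0.58 and passed (0.0282). With the term for low *MFA2* it was -0.76 and passed (0.00882).

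*TIF2* and *RPL16B* were the other genes lower in *rpl2a*Δi. *TIF2* encodes the helicase eIF4A of translation initiation. Its exon read -0.54 and -0.19 in *rpl2a*Δi against 0.37 and 0.21 in replicates 2 and 3 of *rpl2b*Δi, with no value in replicate 1, a difference of -0.66 (SE 0.15, limma adjusted p = 0.0393). *RPL16B*, for the large subunit protein L16, read -0.61 and -0.16 against 0.19 and 0.19, again without replicate 1, a difference of -0.58 (SE 0.12, limma adjusted p = 0.0258). *RPL16B* differed by dye within every replicate: its *rpl2b*Δi replicate 2 joins -0.52 in Cy3 and 0.90 in Cy5, and its *rpl2a*Δi replicate 1 joins -1.18 and -0.042. Without the Cy3 array of *rpl2a*Δi replicate 1, *RPL16B* moved to -0.29 and *TIF2* to -0.54, and neither passed (limma adjusted p = 0.18 and 0.106). Without all of that replicate they were at -0.35 and -0.48 (limma adjusted p = 0.596 and 0.657). *TIF2* also lost its call without *rpl2b*Δi replicate 1 (0.0521), where *TIF2* has no value of its own, without replicate 2 (0.202) and without replicate 3 (0.162), as *RPL16B* did without *rpl2b*Δi replicate 2 (0.202) and replicate 3 (0.171). With the term for low *MFA2*, *RPL16B* was -0.61 and passed (0.0482), and *TIF2* was -0.69 and did not (0.0988).

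*YNCA0006C*, a gene for a nuclear tRNA, was the gene that rose in *rpl2a*Δi relative to *rpl2b*Δi. It read 0.39 and 0.49 against -0.51, -0.65 and -0.54, a difference of 1.0 (SE 0.23, 2.01-fold, limma adjusted p = 0.0393). All *rpl2a*Δi values were above 0 and all *rpl2b*Δi values below, by similar amounts. Replicate 2 of each strain rests on its Cy3 array. Leaving out any 1 of the 5 replicates kept the difference between 0.96 and 1.05 but lifted the limma adjusted p to 0.0952 to 0.209, and without the Cy3 array of *rpl2a*Δi replicate 1 it was 0.93 (0.0632). With the term for low *MFA2* it was 1.23 and passed (0.0223).

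Larger tRNA differences fell short of the threshold over all strains. *YNCD0013C*, also a tRNA gene, read 0.41 and 0.44 against -1.12, -1.04 and -0.996, a difference of 1.48 (SE 0.37, limma adjusted p = 0.0823). *SUP16*, a serine tRNA gene, read 0.14 and 0.16 against -0.64, -1.40 and -1.50, a difference of 1.33 (SE 0.43, adjusted p = 0.203). In both the *rpl2a*Δi replicate averages were close together and above every *rpl2b*Δi replicate. Single arrays spread more: *SUP16* ran from -0.16 to 0.48 on *rpl2a*Δi arrays. *YNCD0013C* in *rpl2b*Δi replicate 3 joins -1.52 in Cy3 and -0.47 in Cy5. With batch as a block both passed, *YNCD0013C* at 1.47 (limma adjusted p = 0.0162) and *SUP16* at 1.45 (0.0435), and both passed within batch C. With the term for low *MFA2* neither did, at 1.79 (0.0583) and 0.93 (0.549). Of 20 nuclear tRNA genes on the array, replicates lay apart and higher in *rpl2a*Δi in 11 (55%) and lower in 1, against 15.6% and 25.2% of all genes, with a median difference of 0.37 against -0.05 over all genes. Of 11 mitochondrial tRNA genes, 3 lay apart and higher, with a median of 0.11. Both tRNA lists were chosen after values were seen, so their shares are not a test. Gene copies of a tRNA can be identical, and whether a feature reads 1 copy or several was not tested.

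**Figure D4:**
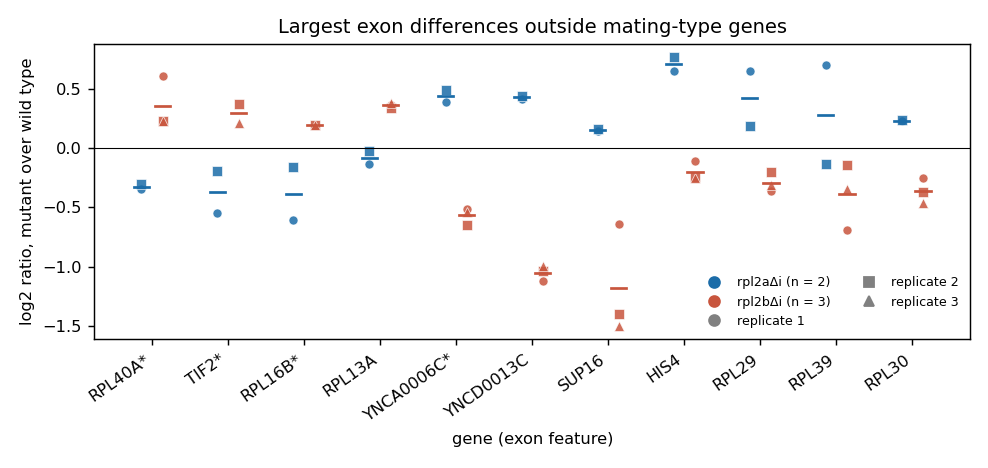
Exon log2 ratios of mutant over wild type for the genes with the largest differences outside the mating-type genes, with 1 point per replicate (symbol shape, replicate; blue, rpl2aΔi; red, rpl2bΔi), a bar at each strain's mean and a star on the 4 genes that passed the limma test. RPL40A, TIF2, RPL16B and RPL13A lie lower in rpl2aΔi, and the tRNA genes, HIS4, RPL29, RPL39 and RPL30 lie higher.

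Genes of amino acid synthesis were among those higher in *rpl2a*Δi without passing the test. *HIS4*, for an enzyme of histidine synthesis, read 0.65 and 0.76 in *rpl2a*Δi and -0.11, -0.24 and -0.25 in *rpl2b*Δi, a difference of 0.91 (SE 0.25, limma adjusted p = 0.0823). The *rpl2a*Δi values were near the top of the range of the other 34 replicates, -0.76 to 0.84. A list of 13 genes of amino acid synthesis and its general control was chosen after values were seen, so its shares are not a test. Of these genes, 6 lay apart and higher in *rpl2a*Δi and 1 lower, with a median difference of 0.25, and 0 passed (7 at an unadjusted limma p under 0.05). Over all genes the shares were 15.6% higher, 25.2% lower and 13.4% at that p. *HIS5*, another enzyme of the same pathway, differed by 0.53, the activator *GCN4* by 0.50 and the lysine pathway activator *LYS14* by 0.45, while the kinase *GCN2* that acts above *GCN4* differed by -0.30. Within batch C, *HIS4* differed by 1.07 (limma adjusted p = 8.1e-07) and *GCN4* by 0.76 (1.8e-05). *HIS4* passed with batch as a block (1.01, 0.0207) and was 0.57 with the term for low *MFA2* (0.501).

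Ribosomal protein genes other than the *RPL2* pair showed small differences in both directions. Among 63 large subunit genes, replicates lay apart and higher in *rpl2a*Δi in 18 and lower in 10, with a median difference of 0.05, and 2 passed, *RPL40A* and *RPL16B*, both lower. The shares over all genes were 15.6% apart and higher and 25.2% apart and lower. Among 52 small subunit genes 17 lay apart and higher and 5 lower, with a median of 0.07, and 0 passed (5 at an unadjusted p under 0.05). The largest differences that did not pass belonged to large subunit genes. *RPL29* read 0.65 and 0.19 against -0.36, -0.20 and -0.31, a difference of 0.71 (limma adjusted p = 0.0823). The value of 0.65 joins 1.17 in Cy3 and 0.13 in Cy5, and the difference was 0.45 without that Cy3 array (0.244). With batch as a block *RPL29* passed at 0.70 (0.0415), as did *RPL13A* at -0.49 (0.0162), and within batch C *RPL29* passed at 0.42 (0.00927). *RPL39* read 0.70 and -0.14 against -0.69, -0.14 and -0.34, a difference of 0.67 (adjusted p = 0.203) that rests on replicate 1 of each strain and was 0.17 without the Cy3 array of *rpl2a*Δi replicate 1. *RPL13A* read -0.14 and -0.026 against 0.37, 0.33 and 0.38, a difference of -0.44 (limma adjusted p = 0.0823). Here the *rpl2b*Δi replicate averages, from 2 batches, lay from 0.33 to 0.38, but that of replicate 1 joins 0.11 in Cy3 and 0.63 in Cy5.

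*RPL30*, whose protein blocks splicing of its own precursor, had exon values that were even among replicates. Its exon read 0.23 and 0.23 in *rpl2a*Δi and -0.25, -0.37 and -0.46 in *rpl2b*Δi, a difference of 0.59 (SE 0.15, limma adjusted p = 0.0823), and its junction read 0.34 and 0.089 against -0.36, -0.34 and -0.34, a difference of 0.56 (adjusted p = 0.0768). The junction value of -0.36 in *rpl2b*Δi replicate 1 joins 0.085 in Cy3 and -0.81 in Cy5. The differences in spliced and total *RPL30* message were alike in size, without overlap of replicates in either feature. With batch as a block both features passed, the exon at 0.65 (limma adjusted p = 0.00631), and within batch C the exon was 0.70 (4.3e-05) and the junction 0.48 (0.00155). With the term for low *MFA2* the exon difference was 0.45 and did not pass (0.463). Among the other genes with splicing feedback, the strains overlapped in the exon values of *RPS14B* (difference -0.16), of the pair *RPS9A* (-0.093) and *RPS9B* (-0.046), and of the mRNA export factor gene *YRA1* (-0.024), and of 7 such genes 1, *RPL30*, lay apart and higher, where 15.6% of all genes did. The signs of these 4 turn under at least 1 other setting, for *RPS14B* within batch C.

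Among genes for making ribosomes, values lower in *rpl2a*Δi than in *rpl2b*Δi were common, by modest amounts that did not pass the test. Of 20 measured genes for assembly of the large subunit, out of 57 listed, replicates lay apart and lower in 10 (50%) and higher in 1, the helicase gene *SPB4*, against 25.2% and 15.6% of all genes, with a median difference of -0.28 against -0.05. The helicase genes *DRS1*, *DBP3* and *HAS1* differed by -0.52, -0.50 and -0.47. Of 8 core protein genes of small nucleolar RNPs, which guide rRNA modification, 4 lay apart and lower and 0 higher, with a median of -0.23. The small nucleolar RNP list was chosen after values were seen, so its share is not a test. *NOP58* read -0.32 and -0.015 against 0.32, 0.30 and 0.44, a difference of -0.52 (limma adjusted p = 0.203), and *NOP1* and *CBF5* both differed by -0.44. None of these assembly or nucleolar genes passed in the fit over all strains, where 5 and 3 of them had an unadjusted p under 0.05.

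**Figure D5:**
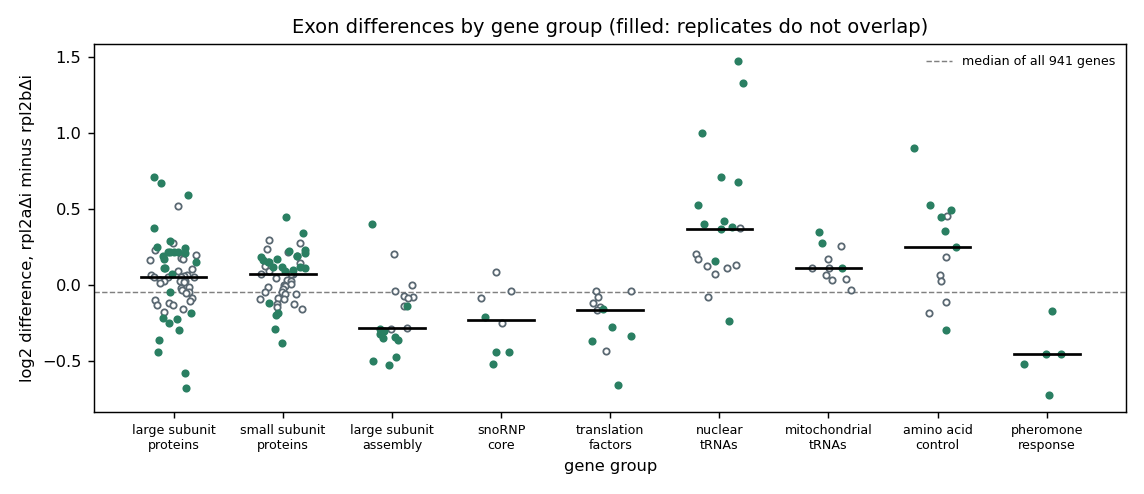
Exon difference of each measured gene (rpl2aΔi minus rpl2bΔi, log2) in 9 gene groups, with a bar at each group's median and a dashed line at the median of all 941 genes. Filled points are genes whose replicates do not overlap between the strains, and group medians run from -0.45 for the pheromone response to 0.37 for nuclear tRNAs. The tRNA, amino acid, small nucleolar RNP and translation factor groups were chosen after values were seen.

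Translation factor genes included *TIF2*, while no splicing factor gene passed in the fit over all strains. Of 12 translation factor genes, 5 lay apart and lower in *rpl2a*Δi and 0 higher, with a median of -0.16, and *TIF2* passed, against 25.2% apart and lower, 15.6% apart and higher and 0.319% called lower over all genes. The translation factor list was chosen after values were seen, so its shares are not a test. *TIF1*, the second gene for eIF4A, read -0.090 and -0.18 against 0.21, 0.0052 and 0.20, a difference of -0.28 (limma adjusted p = 0.508). Of 70 splicing factor genes, 15 lay apart and lower and 5 higher, close to the share over all genes for lower values. *PRP8*, the core protein of the spliceosome, read -0.18 and -0.13 against 0.13, 0.14 and 0.29, a difference of -0.34 (SE 0.093, limma adjusted p = 0.0823). *PRP8* was called lower without the Cy3 array of *rpl2a*Δi replicate 1 and with batch as a block. It was also called lower with scaling, with at least 4 of 6 spots and with each array as a sample. Within batch C, 13 of the 70 splicing factor genes were called lower (18.6%) and 0 higher, against 14.6% and 10.7% of all genes.

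Exon values of some genes differed between batches, and how many did was not counted. With batch as a block, 13 exon values were called higher and 21 lower in *rpl2a*Δi. *HSP104*, a heat shock disaggregase, read 0.85 in *rpl2b*Δi replicate 1 of batch A but -0.67 and -0.55 in replicates 2 and 3 of batch C, while *rpl2a*Δi read -0.047 and 0.049. Of 7 stress genes, 1 lay apart each way over all replicates, against 15.6% higher and 25.2% lower over all genes, and within batch C 4 were called higher in *rpl2a*Δi, against 10.7% of all genes. *TDH1*, a glycolytic dehydrogenase gene, read -0.56 and -0.026 against 1.41, 0.54 and 0.57, a difference of -1.13 (SE 0.86, limma adjusted p = 0.549), with both extremes in replicate 1. The part of batch in these values was not tested further.

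Within batch C a limma fit to 19 replicates of 10 strains, with 9 residual degrees of freedom, gave a smaller median SD of 0.081. More genes passed: 101 of 941 exon values were higher in *rpl2a*Δi (10.7%) and 137 lower (14.6%). This comparison leaves out the Cy3 array of *rpl2a*Δi replicate 1 and rests on 2 values a strain, 1 of them a single Cy5 array, so its dyes are not balanced. All 4 genes called over all strains passed here too, on a part of the same arrays, so this is not a separate test. The nuclear tRNA genes gave 10 of 20 called higher and 0 lower, the genes of amino acid synthesis 7 of 13 higher and 2 lower, and the mitochondrial tRNA genes 0 of 11 either way. The large subunit assembly genes gave 10 of 20 called lower and 1 higher, the small nucleolar RNP genes 6 of 8 lower, and the translation factors 6 of 12 lower. Apart from the assembly genes, these lists were chosen after values were seen, so their counts are not a test. Ribosomal protein genes were split, with 11 of 63 large subunit genes called higher and 12 lower, and 6 of 52 small subunit genes higher and 5 lower.

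The Intron Accumulation Index, the intron value minus the exon value of a gene in a replicate, measures precursor relative to total message. In limma, 2 of 228 genes had a higher index in *rpl2a*Δi (0.877%) and 1 a lower index (0.439%), and 35 (15.4%) had an unadjusted p under 0.05. *RPL2B* (3.37) and *RPL2A* (-1.94) are among them by construction. The remaining gene was *RPL40A*, with an index of 0.57 and 0.54 in *rpl2a*Δi and -0.99, -0.23 and -0.23 in *rpl2b*Δi, a difference of 1.03 (SE 0.22, limma adjusted p = 0.00647). The index shares the exon value with the result above: the *RPL40A* intron alone differed by 0.36 (adjusted p = 0.351) and its junction by -0.062 (adjusted p = 0.987). That junction joins 0.47 in Cy3 and -1.05 in Cy5 in *rpl2b*Δi replicate 1, which is from batch A. Within batch C the *RPL40A* junction differed by -0.44 and passed (limma adjusted p = 0.00202). Against the junction in place of the exon the index difference was 0.42 and did not pass (limma adjusted p = 0.68), and without the Cy3 array of *rpl2a*Δi replicate 1 the index difference was 0.85 (0.0706). Its call was also lost without *rpl2a*Δi replicate 1 (1.02, 0.054), *rpl2a*Δi replicate 2 (1.05, 0.0544) or *rpl2b*Δi replicate 1 (0.78, 0.0791). The index passed within batch C at 0.59 (0.00733) and with the term for low *MFA2* at 1.33 (0.00119).

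Other indices did not pass over all strains. *RPL16B* read 0.89 and 0.16 in *rpl2a*Δi against -0.28 and -0.29, a difference of 0.81 (SE 0.22, limma adjusted p = 0.079). It was 0.44 without *rpl2a*Δi replicate 1 (0.573), 1.17 without *rpl2a*Δi replicate 2, where it passed (0.00679), and 0.51 within batch C, where it passed (0.0177). *LSM2*, for a protein of the ring that binds U6 RNA, read -0.46 and -1.05 against 0.19, 0.26 and 0.011, a difference of -0.91 (SE 0.30, adjusted p = 0.134), and its intron in *rpl2a*Δi was at -0.36 and -1.21. These low values were read on Cy5 arrays: replicate 1 joins 0.051 in Cy3 and -0.77 in Cy5, replicate 2 has no Cy3 value, and the Cy5 arrays of *rpl2b*Δi lay between -0.34 and -0.16. The *LSM2* index passed with batch as a block (-1.02, limma adjusted p = 0.00479) and within batch C (-0.999, 0.00278). *RPL29* differed by -0.58 (adjusted p = 0.134), opposite to its exon, by -0.36 without *rpl2a*Δi replicate 1 and by -0.21 without the Cy3 array of that replicate. The indices of *RPL30* (-0.23), *RPS14B* (0.21), *RPS9A* (0.16), *RPS9B* (0.32) and *YRA1* (-0.040) overlapped between the strains. Of these *RPL30* passed within batch C (-0.65, limma adjusted p = 0.0241). Its index there was -0.82, from a single Cy5 array, and -0.058 in *rpl2a*Δi against 0.16 and 0.27 in *rpl2b*Δi. The *RPL30* intron alone differed by 0.048 within batch C and did not pass (limma adjusted p = 0.888).

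Many intron features of ribosomal protein genes lay apart and higher in *rpl2a*Δi, by amounts that did not pass the test. In limma, 1 of 228 intron features was higher in *rpl2a*Δi (0.439%) and 1 lower (0.439%), the deleted ones, and 30 (13.2%) had an unadjusted p under 0.05. Replicates lay apart and higher in *rpl2a*Δi in 73 of 211 introns (34.6%) and lower in 30 (14.2%). Of 50 large subunit genes 33 lay apart and higher (66%) and 1 lower, with a median of 0.21, and of 43 small subunit genes 24 lay apart and higher (55.8%) and 2 lower, with a median of 0.16. The other 133 intron-containing genes gave 15 higher and 26 lower, with a median of -0.03. *RPS16B*, for small subunit protein S16, was closest to the threshold, at 0.19 and 0.45 against -0.34, -0.44 and -0.057, a difference of 0.60 (SE 0.16, limma adjusted p = 0.0559), followed by *RPS17B*, at 0.28 and 0.074 against -0.31, -0.28 and -0.28, a difference of 0.47 (adjusted p = 0.079). Within batch C, 1 of the 50 large subunit introns and 3 of the 43 small subunit introns (6.98%) were called higher and 0 of either lower, against 10 of 227 introns higher (4.41%) and 3 lower (1.32%).

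The index of fewer of these genes lay apart. Replicates lay apart and higher in *rpl2a*Δi in 54 of 210 genes (25.7%) and lower in 29 (13.8%), in 19 of 50 large subunit genes higher (38%) and 1 lower, and in 13 of 43 small subunit genes higher (30.2%) and 3 lower. Within batch C, 24 of 227 indices were called higher (10.6%) and 12 lower (5.29%), of them 10 large subunit and 5 small subunit genes higher. No junction feature passed: 0 of 228 were called higher (0%) and 0 lower (0%) in limma, 15 had an unadjusted p under 0.05 (6.58%), and replicates lay apart and higher in 39 of 202 (19.3%) and lower in 29 (14.4%).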

How the data were processed

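Total RNA of mutant and wild type was compared on 2-colour arrays. The deposited values are log2 ratios, mutant over wild type, normalized by the authors in R with marray and limma in their own Goulphar-derived pipeline. For its versions, background correction and spot filters, nothing is stated in the labels or methods. Without intensities the effect of dim spots could not be tested. Features were named through the array annotation (982 symbols matched), and their kind was read from the printing layout, where the deleted intron was the lowest own feature in 17 of 17 strains. Features with no symbol (79) or no kind (50) were left out, and 15 genes were placed by a step that no deleted intron tests.

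Spots of a feature and then the arrays of a replicate were averaged. limma 3.58.1 in R 4.3.3 was fitted to the 39 replicates with 1 mean per strain (22 residual degrees of freedom), and the contrast *rpl2a*Δi minus *rpl2b*Δi was tested with Benjamini-Hochberg adjustment over all genes of a kind of feature and a threshold of 0.05. The procedure was tested on simulated data. No replicates shared identical values. Alternatives covered scaling, spot filters, dyes, batches, blocks and left-out replicates.

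The comparison and the gene lists were chosen with earlier results of these data known. The lists of tRNAs, amino acid synthesis, small nucleolar RNPs and translation factors, and the list members given as examples, were chosen after values were seen. Named genes otherwise are the *RPL2* pair, the mating-type markers, the genes called in exons or index (filled up to 6 each way in exons and 3 in the index with the largest differences at an unadjusted p under 0.05 without overlap), the 3 ribosomal protein genes with the largest such differences each way, and *RPL30*, *RPS14B*, *RPS9A*, *RPS9B* and *YRA1*. The number of arrays limits the precision.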

Additional observations from a re-analysis of the deposited data

Results flagged for a closer look

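The following differences between the strains passed the test of the difference itself in limma over all 39 replicates. In exons *RPL40A* (-0.68), *TIF2* (-0.66) and *RPL16B* (-0.58) were lower in *rpl2a*Δi than in *rpl2b*Δi, and *YNCA0006C* (1.0) was higher. In the index *RPL40A* (1.03) was higher in *rpl2a*Δi, by 0.59 within batch C. The index of *RPL2B* (3.37) and *RPL2A* (-1.94) and their introns (3.45 and -1.87) differ because those introns were deleted. With 2 and 3 replicates no group was large enough to look for single outlying replicates.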

How the results depend on the processing

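Counts of calls moved with most choices, given here as genes higher and then lower in *rpl2a*Δi (reported: 1 and 3 in exons, 2 and 1 in the index). Scaling each array gave 8 and 6 in exons and 4 and 2 in the index, and medians of spots 0 and 1 in exons. Requiring at least 4 of 6 spots gave 0 higher in exons and 3 lower in the index. Features complete on all 10 arrays gave 0 and 0 in exons (866 tested) and 1 higher in the index. The mutant in Cy3 gave 2 higher in exons and 1 in the index, and in Cy5 0 and 0 in exons and 1 higher in the index. Each array as a sample gave 12 and 14 in exons and 5 and 2 in the index, and the arrays of *rpl2a*Δi replicate 1 as separate replicates 10 and 7, and 5 and 2. Batch as a block gave 13 and 21, and 6 and 2, and batch C alone 101 and 137, and 24 and 12. The 5 replicates alone gave 9 and 6 in exons and 1 higher in the index, and a term for low *MFA2* 2 higher in exons and 5 in the index. The index over junctions gave 1 higher. Without the Cy3 array of *rpl2a*Δi replicate 1, an alternative added after seeing the data, 0 were higher in exons and 1 in the index. Leaving out a replicate gave 0 to 0 higher and 1 to 3 lower in exons, and 1 to 2 higher and 1 to 2 lower in the index. Without an *rpl2a*Δi replicate the lone sample is assumed to vary like the other strains.

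Intron calls (2 reported) became 5 with scaling, 4 with medians of spots, 7 with batch as a block, 13 in batch C, 1 with the 5 replicates alone, 15 with the term for *MFA2*, and 2 to 7 with a replicate left out. Junction calls (0 reported) became 1 with scaling, complete features, separate arrays of *rpl2a*Δi replicate 1, batch as a block or the term for *MFA2*, 2 with each array as a sample, 9 in batch C, and 0 to 2 with a replicate left out.

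The strains share only replicate numbers 1 and 2, and same-numbered replicates did not deviate together (r = -0.14 and -0.11 over genes), so the number is not taken as a pairing. With a replicate block over replicates 1 and 2 of these strains alone, exons gave 13 and 13, the index 0 and 0, and introns 0. With a replicate block over all strains, exons gave 0 and 1, and the index stayed at 2 and 1. *RPL40A* passed in exons under both.

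Signs turned only for differences that did not pass. The *RPL2B* exon difference was -0.038 with the mutant in Cy3. *YRA1* in exons was 0.0038 with scaling, 0.017 in Cy5, 0.060 in batch C and 0.013 without the Cy3 array, with a range of -0.072 to 0.022 over left-out replicates. *RPS14B* was 0.048 in batch C. *RPS9A* was 0.16 in batch C and 0.13 without the Cy3 array (-0.15 to -0.033 over left-out replicates). *RPS9B* was 0.073 with the block on these strains and 0.21 without the Cy3 array, with -0.29 to 0.11 over left-out replicates. *MFA2* was -0.018 with the term made from *MFA2* itself. In the index *YRA1* was 0.10 in Cy3 (-0.13 to 0.052 over left-out replicates), *RPL30* 0.29 in Cy5, *RPS9A* -0.24 in batch C, -0.015 over junctions and -0.055 without the Cy3 array (-0.017 to 0.27 over left-out replicates), and *RPS9B* -0.063 without the Cy3 array (0.050 to 0.58 over left-out replicates). The *RPL2B* junction ran from -0.14 to 0.035 over left-out replicates. The cause of these changes was not tested.

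The *RPL40A* exon difference stayed between -0.76 and -0.46 over 21 alternatives, with limma adjusted p from 0.0005 to 0.43. It did not pass with at least 4 spots (0.0764), with either dye alone (0.0947 and 0.433), with the 5 replicates alone (0.0887) or without *rpl2a*Δi replicate 1 (0.066). With 2 replicates of *rpl2a*Δi and no intensities, small differences are not detectable.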
